A study of Mus musculus with 6 samples.

Results

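The rows described here are the small nucleolar RNAs (snoRNAs) and snoRNA host genes in RNA-seq of the E9.5 mouse pharyngeal arch region. They were chosen by gene symbol, as every row named Snord, Snora or Snhg with a number, plus *Gas5*. They make up 54 of the 14647 rows of the table, namely 27 box C/D snoRNAs (Snord), 14 box H/ACA snoRNAs (Snora) and 13 host genes (Snhg and *Gas5*). The symbols take no account of the measured values, but the group was proposed with results of these same libraries known, so the counts of members called between genotypes are a description, with no test over the group. Embryos lacking both copies of *Pax9* (*Pax9*-null, *Pax9*-/-, *n*=3) were compared with stage-matched wild-type embryos (*n*=3), all at E9.5, to ask which transcripts differ when this transcription factor of the pharyngeal endoderm is lost. Each group mixed female and male embryos. Total RNA came from whole dissected tissue, so that endoderm, neural crest, mesoderm, endothelium and blood were measured together, and fewer cells of a type cannot be told apart from less RNA per cell.

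snoRNAs guide enzymes to ribosomal and spliceosomal RNA. Box C/D snoRNAs carry the methyltransferase fibrillarin and direct methylation of ribose, whereas box H/ACA snoRNAs carry the pseudouridine synthase dyskerin and direct the conversion of uridine to pseudouridine. Most mouse snoRNAs lie in introns, are released from the debranched intron and trimmed by exonucleases. Many of the genes that hold them encode ribosomal proteins or nucleolar proteins. The Snhg genes and *Gas5* are spliced, mostly non-coding RNAs known mainly for the snoRNAs in their introns, and several are degraded in the cytoplasm by nonsense-mediated decay.

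The 4 box C/D snoRNAs with the most reads are printed first, because their short conserved boxes are what places them in the class. Sequences are those of the GENCODE M21 transcripts (GRCm38), read 5′ to 3′. The capitals mark box C (ATGATGA or GTGATGA, searched in the first 30 bases) and box D (CTGA, searched in the last 20 bases). *Snord17* (chr2:144265979-144266216, minus strand) lies in *Snx5*, *Snord43* (chr15:80082847-80082954, minus strand) in *Rpl3*, *Snord15a* (chr7:99482785-99482932, minus strand) in *Rps3* and *Snord49a* (chr11:62603450-62603521, plus strand) in *2410006H16Rik*, all within introns.
Snord17: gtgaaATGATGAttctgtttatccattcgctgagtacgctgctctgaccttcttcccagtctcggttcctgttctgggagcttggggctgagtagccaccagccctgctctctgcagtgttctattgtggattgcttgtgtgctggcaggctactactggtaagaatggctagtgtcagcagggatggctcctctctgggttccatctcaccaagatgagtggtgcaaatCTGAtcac
Snord43: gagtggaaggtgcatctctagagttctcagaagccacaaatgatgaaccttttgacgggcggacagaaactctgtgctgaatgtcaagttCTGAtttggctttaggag
Snord15a: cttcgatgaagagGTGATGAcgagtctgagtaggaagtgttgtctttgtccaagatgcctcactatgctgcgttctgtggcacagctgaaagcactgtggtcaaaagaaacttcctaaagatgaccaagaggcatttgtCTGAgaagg
Snord49a: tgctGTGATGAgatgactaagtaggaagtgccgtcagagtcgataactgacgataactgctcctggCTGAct
Both boxes were found in 16 of the 27 box C/D rows (59.3%). Box D was in 26 rows, all but *Snord53*, and box C in 17. *Snord43* had no box C match in its window. Searched on the transcript strand in the same windows, 0.0407% of 51568 other annotated transcripts held both, 0.467% held box C and 8.74% held box D.

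The 4 box H/ACA snoRNAs with the most reads are shown for the same reason. Capitals mark the H box (ANANNA, searched between 30% and 70% of the length) and the ACA near the 3′ end (searched in the last 10 bases). *Snora57* (chr19:8888538-8888685, minus strand) lies opposite *Lbhd1*, *Snora78* (chr17:24719676-24719803, minus strand) in *Snhg9* and opposite *Rps2*, *Snora17* (chr2:26639190-26639321, minus strand) in no gene of its strand, and *Snora33* (chr10:23785347-23785475, minus strand) in *Rps12*, on an annotated exon.
Snora57: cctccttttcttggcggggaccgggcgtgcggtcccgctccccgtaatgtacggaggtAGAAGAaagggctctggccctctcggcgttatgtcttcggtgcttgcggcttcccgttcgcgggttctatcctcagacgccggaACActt
Snora78: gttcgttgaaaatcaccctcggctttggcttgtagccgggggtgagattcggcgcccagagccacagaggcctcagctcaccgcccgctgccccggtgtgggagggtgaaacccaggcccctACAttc
Snora17: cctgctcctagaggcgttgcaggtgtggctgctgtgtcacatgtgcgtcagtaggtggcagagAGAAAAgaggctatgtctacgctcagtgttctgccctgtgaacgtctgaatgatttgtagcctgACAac
Snora33: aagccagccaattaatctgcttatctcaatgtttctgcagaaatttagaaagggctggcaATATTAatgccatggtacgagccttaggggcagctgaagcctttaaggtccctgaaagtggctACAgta
All 14 rows ended in the ACA element and 13 also held the H box, *Snora78* being the exception. Of other transcripts, 95.8% held the H box, 14.3% the ACA and 13.8% both. The H box window grows with transcript length, so longer transcripts offer more places for a match. The shares with the H box are therefore not matched to the snoRNAs in size. These matches describe the printed letters only.

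Reads could be recovered as whole numbers from the deposited log2 RPKM, a unit that divides reads by gene length and library size. Between 11676946 and 12705808 reads were recovered per library. *Pax9*, the deleted gene, had log2 RPKM of −0.43, −0.63 and −0.59 in the *Pax9*-null libraries and 0.63, 0.71 and 0.96 in wild-type (log2 fold change −1.32, adjusted *P*=0.0155 by limma). Markers of pharyngeal endoderm, neural crest, endothelium, blood, heart muscle and neural tube were all detected. The libraries were not alike in tissue content or in short RNA. Wild-type replicate 3 was low in all 5 cardiomyocyte markers (*Actc1* 5.37 log2 RPKM against 8.62 to 9.17 in the other libraries, *Nppa* at 0 reads). Wild-type replicate 1 was low in all 5 neural tube markers, and it was the lowest of the 6 libraries for 29.5% of all tested rows. Of 5 erythroid markers, 2 were called higher in *Pax9*-null embryos, their summed RPKM being 2566 to 4741 against 2327 to 2416. Of 5 endothelial markers 2 were called lower, with summed RPKM of 35.7 to 49.6 against 41.8 to 81.1. Their part in the results was not tested.

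snoRNA reads were more abundant in the *Pax9*-null libraries. Summed over the 41 snoRNA rows and scaled to a library of 1000000 reads, values were 241, 222 and 263 in *Pax9*-null replicates 1 to 3 and 96.8, 184 and 164 in wild-type replicates 1 to 3. The box C/D rows gave 141, 127 and 149 against 53.7, 105 and 92.0. The box H/ACA rows gave 99.8, 94.9 and 114 against 43.2, 79.8 and 71.6. In both classes every *Pax9*-null library was above every wild-type library, and wild-type replicate 1 was the lowest by a wide margin although it had the most reads in all. Host gene rows summed to 651, 570 and 669 on the same scale in *Pax9*-null and 358, 483 and 497 in wild-type libraries, again without overlap.

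**Figure D1:**
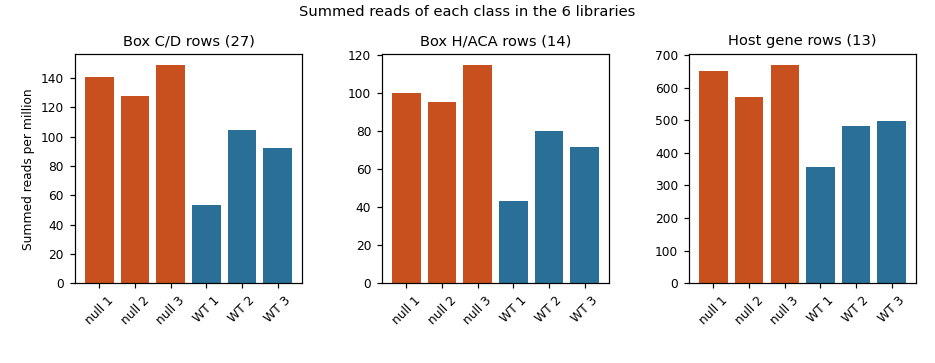
Summed reads per 1000000 reads of the library (vertical axes from 0, a separate scale for each class) in the 3 *Pax9*-null (orange) and 3 wild-type (blue) libraries, one bar for each library with no error bar. Every orange bar is above every blue bar, and wild-type replicate 1 is the lowest in each class, at 53.7 for box C/D, 43.2 for box H/ACA and 358 for host genes.

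Of the 54 rows, 53 passed the filter of a mean of at least 0.5 RPKM. *Snhg11* did not, with 33 to 57 reads per library. In the limma test, with *P* values adjusted over all 13547 tested rows and a threshold of 0.1, 31 of the 53 were called higher in *Pax9*-null embryos, where 14.7% of all tested rows were. They were 17 of 27 box C/D, 7 of 14 box H/ACA and 7 of 12 host gene rows. By limma 0 members were called lower, where 12% of all tested rows were, and 0 were lower at an unadjusted *P* under 0.05 either in this test or with voom weights on the recovered reads. Every *Pax9*-null value was above every wild-type value in 34 members, where this held for 21.8% of all tested rows. With 3 libraries a group an exact permutation test of a single row cannot give a *P* below 0.1, so a call depends on the variance estimate that limma borrows across rows.

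The median log2 fold change was 0.83 for box C/D (0.27 to 1.71), 0.67 for box H/ACA (−0.07 to 1.51) and 0.49 for host gene rows (0.18 to 0.85), against −0.00 over all tested rows, but once every library's dependence on row length and GC content had been removed (length and GC trends removed) these medians were 0.07, −0.14 and 0.21. As deposited, 52 of 53 members had a positive log2 fold change, *Snora47* being the exception at −0.07 (adjusted *P*=0.783). With the trends removed, 29 of 52 were positive. *Snord93* was then the only member called higher, where 1.77% of tested rows were, and 6 were called lower, where 2.17% were. These 6 were *Snord58b*, *Snora17*, *Snora28*, *Snora2b*, *Snora47* and *Snora20*. The trends were fitted over all tested rows with a GC value, members included. At snoRNA lengths the fit rested on few rows, the 41 snoRNA rows among them. A shift shared by the snoRNAs is therefore removed in part with the trends. Short rows moved together in these libraries. The 117 other tested rows no longer than the longest snoRNA row (238 bp) had a median log2 fold change of 0.97, with 77 called higher and 1 lower. The 12725 other rows in the length range of the host genes had a median of −0.03, with 1531 called higher and 1609 lower. That range, 853 to 26093 bp, holds most rows of the table, so it does not match the hosts in length. Before the filter its rows had a median length of 4163 bp, against 2166 bp for the host genes. Whether the genotype or RNA length moved the snoRNA rows cannot be told apart in these values.

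**Figure D2:**
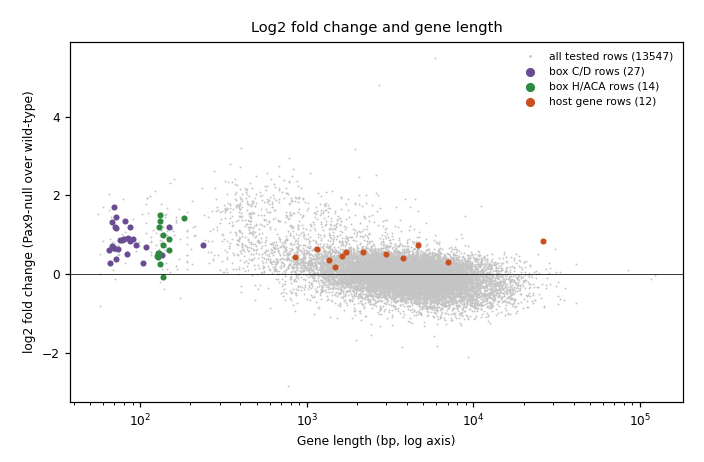
Log2 fold change (*Pax9*-null over wild-type, vertical axis) against gene length in bp (log axis) for the 13547 tested rows in grey, with 27 box C/D, 14 box H/ACA and 12 host gene rows in colour. The snoRNA rows lie among other short rows, most of which are also above 0. The host gene rows lie above the median of −0.03 of other rows from 853 to 26093 bp, a range that holds most tested rows. With length and GC trends removed, the class medians were 0.07, −0.14 and 0.21.

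Single libraries set how many members passed. Leaving out *Pax9*-null replicates 1, 2 and 3 in turn gave 7, 26 and 5 members called higher, where 1.93%, 12.4% and 1.13% of all tested rows were. Leaving out wild-type replicate 2 gave 38 and wild-type replicate 3 gave 29, where 14.8% and 9.16% of all tested rows were. Without wild-type replicate 1, 24 were called, where 8.13% of all tested rows were, and all 24 were among the 31. This library was the lowest of the 6 in 49 of the 54 members, in all 13 hosts, 13 of 14 box H/ACA rows and 23 of 27 box C/D rows. Its median difference from the other wild-type libraries was −0.71 log2 for box C/D, −0.70 for box H/ACA and −0.46 for host gene rows, against −0.00 over all rows. Without it the median log2 fold changes were 0.49, 0.44 and 0.36, and 52 of 53 members were still positive. The spread among wild-type libraries was accordingly wide, with a median SD of 0.48, 0.43 and 0.28 in the 3 classes against 0.21, 0.19 and 0.17 among the *Pax9*-null libraries. Only *Snord82*, *Snord73a*, *Snord87*, *Snora69* and *Snora62* were called in all 6 fits that left out a library (*Snora62* was singled out after its values were seen, the others were named by rank or position). With length and GC trends removed their log2 fold changes were 0.88, 0.42, 0.27, 0.07 and −0.16 (adjusted *P*=0.124 to 0.866 by limma).

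*Snord82* (ENSMUSG00000064823, chr1:86356261-86356330, minus strand) lies in an intron of *Ncl*, which encodes the nucleolar protein nucleolin, and had the largest rise. Its log2 RPKM was 4.79, 5.09 and 5.07 in *Pax9*-null replicates 1 to 3 and 3.08, 2.91 and 3.83 in wild-type replicates 1 to 3. The groups did not overlap, and the lowest wild-type value was in replicate 2 rather than replicate 1. These values rest on 22, 27 and 27 reads against 7, 6 and 12. The log2 fold change was 1.71 (SE 0.23, adjusted *P*=0.012 by limma), and 1.61 without wild-type replicate 1. *Ncl* itself had 6.44, 6.71 and 6.31 against 7.18, 6.82 and 6.57 log2 RPKM (log2 fold change −0.37, adjusted *P*=0.16), so the snoRNA and its host lay 2.08 log2 units apart, the widest gap of all pairs.

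*Snord73a* (ENSMUSG00000064984, chr3:86138791-86138858, minus strand) lies in the ribosomal protein gene *Rps3a1*. It had 5.53, 5.24 and 5.63 log2 RPKM in *Pax9*-null and 4.34, 4.30 and 3.75 in wild-type libraries. It is a rare member in which wild-type replicate 1 was the highest of its group. The log2 fold change was 1.34 (SE 0.18, adjusted *P*=0.0117) and rose to 1.44 without that library. *Snord15a*, in *Rps3*, had 6.26, 6.02 and 6.41 against 4.60, 5.31 and 5.16 log2 RPKM, on 110 to 147 and 45 to 72 reads. With the deepest coverage among the called box C/D rows, it had a log2 fold change of 1.21 (SE 0.19, adjusted *P*=0.0183), and without *Pax9*-null replicate 3 it was 1.12 and was not called (adjusted *P*=0.11).

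*Snord72* and *Snord65* showed how far wild-type replicate 1 could widen a difference. *Snord65* had 31, 35 and 27 reads in *Pax9*-null libraries and 5, 20 and 16 in wild-type libraries. The 5 reads of wild-type replicate 1 carry an exact 95% Poisson interval of 1.62 to 11.7, which covers counting error only. Its log2 fold change was 1.46 (SE 0.44) with that library and 0.87 without it. *Snord72*, in *Rpl37*, had 3.36 log2 RPKM in that library and 4.73 and 4.02 in the other wild-type libraries, with a log2 fold change of 1.34 (SE 0.34). *Snord65* and *Snord72* were called with all 6 libraries (adjusted *P*=0.0676 and 0.0482 by limma) and stayed called without wild-type replicate 1 (0.0219 and 0.0726). Both lost the call without *Pax9*-null replicate 1 (0.206 and 0.173) or 3 (0.151 and 0.141), and *Snord65* also without *Pax9*-null replicate 2 (0.128).

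Of the 8 box C/D rows with the most reads, only *Snord15a* and *Snord83b* were called. *Snord17*, with 169 to 498 reads the best covered snoRNA, had 7.50, 7.21 and 7.46 log2 RPKM in *Pax9*-null and 5.81, 7.17 and 6.95 in wild-type libraries. All *Pax9*-null values were above wild-type, though only just, and the log2 fold change of 0.75 (SE 0.32) did not pass (adjusted *P*=0.139). *Snord43* (0.69, SE 0.26, adjusted *P*=0.106), *Snord49a* (0.39, SE 0.17, 0.149) and *Snord32a* (0.52, SE 0.23, 0.15) did not pass either, and *Snord83b* did (0.74, SE 0.22, 0.0635). *Snord83b* was not called without *Pax9*-null replicate 1, 2 or 3 (adjusted *P*=0.177, 0.128 and 0.15).

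The box H/ACA snoRNA with the smallest adjusted *P* was *Snora69* (ENSMUSG00000065642, chrX:37082912-37083042, minus strand), which lies in the ribosomal protein gene *Rpl39*. Its log2 RPKM was 4.84, 5.01 and 4.72 in *Pax9*-null and 3.40, 3.52 and 3.64 in wild-type libraries. Both groups were tight, with an SD of 0.14 and 0.12, and the log2 fold change was 1.34 (SE 0.11, adjusted *P*=0.00592). *Rpl39* was called higher too (0.80, SE 0.16, adjusted *P*=0.0343). With length and GC trends removed *Snora69* was at 0.07 (adjusted *P*=0.866 by limma) and *Rpl39* at 0.52 (0.0887). *Snora62* (ENSMUSG00000064925, chr9:120130415-120130563, plus strand), in the ribosomal protein gene *Rpsa*, had 4.32, 4.15 and 4.73 against 3.51, 3.48 and 3.52. It was the called snoRNA whose wild-type libraries differed least (SD 0.02), with a log2 fold change of 0.90 (SE 0.15, adjusted *P*=0.0206), which was −0.16 (0.617) with length and GC trends removed. Its wild-type libraries had 21, 20 and 21 reads, and 21 reads carry an exact 95% Poisson interval of 13 to 32.1. Counting error alone is wider than that SD, and also limits *Snora69*, which had 17 to 20 reads in wild-type libraries.

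The largest box H/ACA rise was in *Snora41*, in the translation elongation factor gene *Eef1b2*. It had 5.13, 4.93 and 5.06 log2 RPKM against 2.78, 4.32 and 3.48, so that the *Pax9*-null libraries were close together and the wild-type libraries ranged over 11 to 32 reads. The log2 fold change was 1.51 (SE 0.33, adjusted *P*=0.0414) and 1.14 without wild-type replicate 1. *Snora23* (1.43, SE 0.26, adjusted *P*=0.028), *Snora33* (1.19, SE 0.19, 0.021), *Snora21* (0.99, SE 0.21, 0.0409) and *Snora2b* (0.74, SE 0.17, 0.0425) were also called. Each of *Snora41*, *Snora23*, *Snora21* and *Snora2b* lost the call without *Pax9*-null replicate 1 (adjusted *P*=0.165, 0.127, 0.149 and 0.166) or 3 (0.128, 0.123, 0.128 and 0.128), and *Snora33* without replicate 3 (0.112). *Snora23* lies opposite *1600010M07Rik*, and reads of opposite strands cannot be told apart where strand was not used in counting.

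*Snora57*, *Snora78* and *Snora17*, the best covered box H/ACA rows at 78 to 340 reads, had smaller differences. Their log2 fold changes were 0.61 (SE 0.24, adjusted *P*=0.117), 0.55 (SE 0.28, 0.207) and 0.27 (SE 0.18, 0.32). Without wild-type replicate 1 these were 0.31, 0.20 and 0.04. *Snora28*, in *Eif5*, had 0.47 (SE 0.19, adjusted *P*=0.125). *Snora57* and *Snora78* lie opposite *Lbhd1* and *Rps2*, with the same limit on strand.

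**Figure D3:**
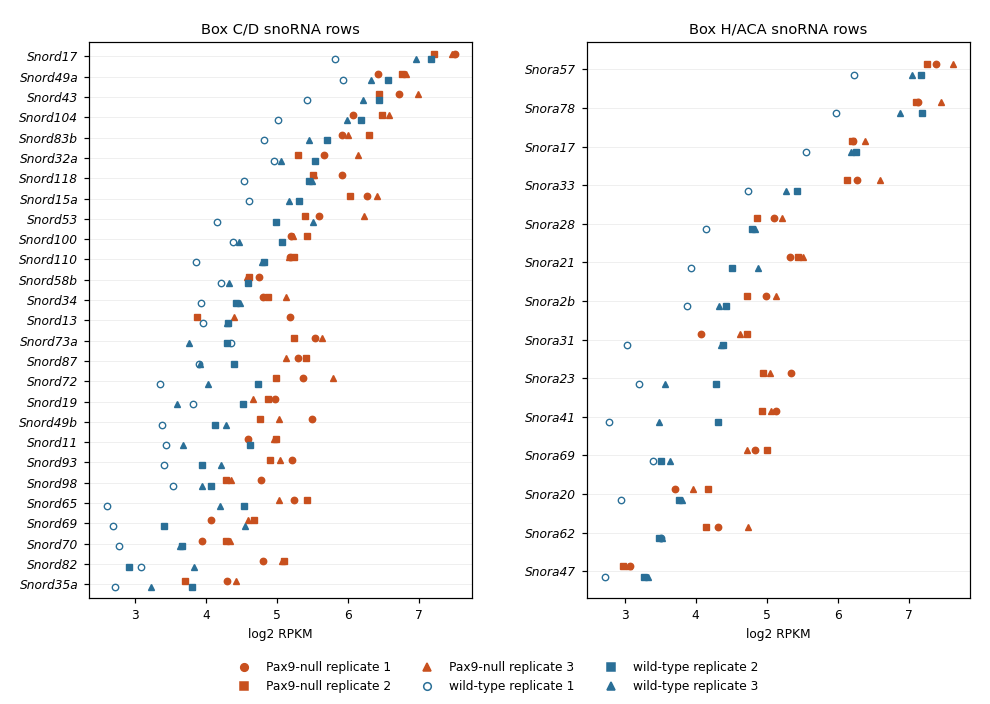
Log2 RPKM (horizontal axis) of the 27 box C/D rows (left) and 14 box H/ACA rows (right) in each library, sorted by wild-type mean, with *Pax9*-null libraries in orange and wild-type libraries in blue, and with wild-type replicate 1 as open circles. The open circles are the leftmost point in 36 of 41 rows. *Snora69* and *Snord82* have separate groups with or without them.

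The rows can also be split by place in the genome. In GENCODE M21, 35 snoRNA rows lie inside a gene of the same strand that has a row in the table. Of these, 24 were called higher, where 14.7% of all tested rows were. The other 6 are *Snord13*, *Snord104*, *Snord118*, *Snora17*, *Snora57* and *Snora78*, and 0 of them were called by limma or with voom weights (smallest adjusted *P*=0.117 by limma), while 1 had an unadjusted *P* under 0.05. *Snord118* (U8, which acts in the maturation of large-subunit ribosomal RNA) and *Snord13* (U13) are known as snoRNAs transcribed from promoters of their own. *Snord118* had 5.92, 5.50 and 5.52 log2 RPKM against 4.53, 5.44 and 5.49. Apart from wild-type replicate 1 its libraries nearly met, and its log2 fold change was 0.49 (SE 0.26, adjusted *P*=0.209). *Snord13* had 5.17, 3.87 and 4.38 against 3.96, 4.31 and 4.29, with overlapping groups. The median log2 fold change of these 6 rows was 0.52, and 0.19 without wild-type replicate 1, against 0.86 and 0.57 for the 35. This split was noticed after the values were seen and was not tested. The 6 rows also had more reads, with a median of 91.4 per library against 28.3. Their GC content ran from 45.9% to 64.1%, against a median of 45.9% over the 41 snoRNA rows.

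The table holds only some of the annotated snoRNAs. Of 141 mouse genes named Snord or Snora in GENCODE M21, 41 had a row. An exon of another gene overlapped 6 of these 41 (14.6%) and 61 of the other 100 (61%), which were not analysed here. The counting program leaves out by default reads that meet exons of more than one gene. The 4 Snord or Snora genes inside *Gas5* and the 1 inside *Snhg1* all lie on annotated exons, and none was among the 41. *Snord87* was the only listed snoRNA inside a listed host.

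In 34 of the 35 rows inside a measured gene, the log2 fold change of the snoRNA was above that of its host. The median difference was 0.57, and 0.40 without wild-type replicate 1, but −0.11 with length and GC trends removed. The exception was *Snord58b* (0.27) in *Rpl17* (0.54). The 14 pairs in 10 ribosomal protein genes had a median difference of 0.55 and the 21 pairs in 17 other genes 0.65. The hosts were themselves often higher, 15 of 27 being called. Of the 26 that are not Snhg genes, 14 were called higher, where 14.7% of all tested rows were, with a median log2 fold change of 0.32 over the 26. With length and GC trends removed 1 of them was called higher and 1 lower, and the median was 0.08. The other hosts included 5 with a negative log2 fold change, *Ccar1*, *Ncl*, *Zbed3*, *Nop56* and *Kansl2* (adjusted *P*=0.148 to 0.696). Of the 14, 0 were called by limma without *Pax9*-null replicate 1 or 3, 5 when wild-type replicate 1 was left out and 1 when wild-type replicate 3 was left out. Among these, *Snx5* (0.46, adjusted *P*=0.0471), *Rps3* (0.43, 0.0686), *Rpl37* (0.46, 0.0744), *Rps3a1* (0.44, 0.0829), *Rpl23* (0.43, 0.0667) and *Eef1b2* (0.45, 0.0699) each hold a snoRNA described above. Across the 35 pairs, which share libraries and in part hosts, the rank correlation of snoRNA and host log2 fold changes was weak (Spearman's rho=0.18).

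Rows within one host differed by varying amounts. *2410006H16Rik* (log2 fold change 0.35, adjusted *P*=0.107) holds *Snord49b*, *Snord49a* and *Snord65*, whose log2 fold changes were 1.17 (SE 0.26), 0.39 (SE 0.17) and 1.46 (SE 0.44). *Rps12* (0.52, adjusted *P*=0.116) holds *Snora33* at 1.19 (SE 0.19) and *Snord100* at 0.65 (SE 0.18). In *Rpl13a* (0.37, adjusted *P*=0.0742) the values of *Snord35a*, *Snord34* and *Snord32a* were 0.89 (SE 0.29), 0.65 (SE 0.16) and 0.52 (SE 0.23). In *Nop58*, whose protein is itself a core part of box C/D particles, *Snord70* and *Snord11* were at 0.83 and 0.93 and the host at 0.27. In *Gnl3*, *Snord69* and *Snord19* were at 0.89 (SE 0.42) and 0.86 (SE 0.22), and in *Rpl3*, *Snord83b* and *Snord43* were at 0.74 and 0.69. The *Gnl3*, *Rpl3* and *Nop58* pairs lay within their errors, and the differences within a host were not tested. Reads of mature snoRNA and of the unspliced host intron cannot be told apart here.

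**Figure D4:**
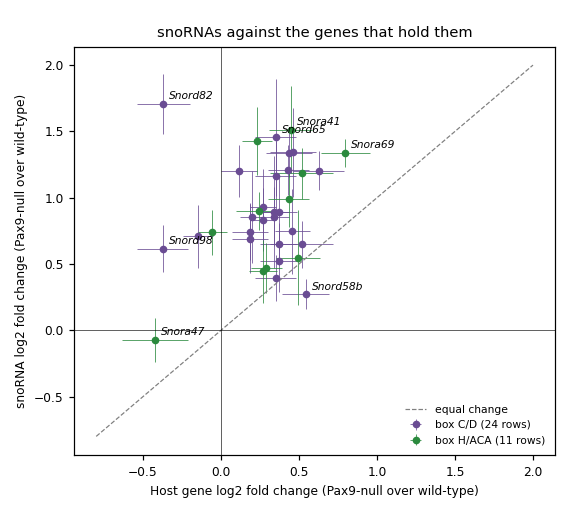
Log2 fold change (*Pax9*-null over wild-type) of each snoRNA row (vertical axis) against that of the gene holding it (horizontal axis) for 24 box C/D and 11 box H/ACA rows, with bars of 1 SE. Points above the dashed line have a larger value in the snoRNA, as 34 of 35 do as deposited, and *Snord82* in *Ncl* lies farthest above it. With length and GC trends removed the median difference was −0.11.

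Across the 41 snoRNA rows, log2 fold change and length were unrelated in rank (Spearman's rho=−0.03), as were log2 fold change and mean reads (−0.11), and rows of lower GC content had larger values (−0.42). Length and mean reads were themselves related (rho=0.54). The rows share libraries and short length, so these are descriptions. The 13 rows with a mean of at least 50 reads had a median log2 fold change of 0.69, with 5 called higher. The 28 below that had 0.86, with 19 called higher, where 14.7% of all tested rows were.

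All 12 tested host gene rows had a positive log2 fold change as deposited, whereas *Snhg6*, *Snhg8* and *Snhg18* were at −0.02, −0.30 and −0.11 with length and GC trends removed. *Gas5* (ENSMUSG00000053332, chr1:161034422-161038539, plus strand), a host of box C/D snoRNAs known for its accumulation in growth-arrested cells, was the most abundant. Its log2 RPKM was 5.94, 5.81 and 5.94 in *Pax9*-null and 5.26, 5.59 and 5.60 in wild-type libraries, on 1826 to 2714 reads. The groups did not overlap, and the log2 fold change was 0.42 (SE 0.11, adjusted *P*=0.0531) and 0.30 without wild-type replicate 1. *Snhg4* had the smallest adjusted *P* of the hosts, with 3.20, 3.12 and 3.37 against 2.19, 2.60 and 2.65 log2 RPKM (0.75, SE 0.15, adjusted *P*=0.0345). It has no entry of its identifier in GENCODE M21 and was left out where GC content was used.

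*Snhg14* had the largest log2 fold change of the hosts. It is the long transcript of the imprinted region of *Snrpn* and *Ube3a*, made from the paternal allele. Its log2 RPKM was 1.35, 1.23 and 1.21 in *Pax9*-null and −0.12, 0.55 and 0.82 in wild-type libraries, without overlap (0.85, SE 0.25, adjusted *P*=0.0639). *Snhg6* (0.63, SE 0.16, adjusted *P*=0.0505), *Snhg5* (0.56, SE 0.18, 0.0728), *Snhg20* (0.55, SE 0.20, 0.0974) and *Snhg1* (0.52, SE 0.16, 0.0668) were also called. *Snhg6* holds *Snord87* (ENSMUSG00000093178, chr1:9942463-9942549, minus strand), which had 5.29, 5.41 and 5.12 against 3.90, 4.39 and 3.92 log2 RPKM (1.20, SE 0.15, adjusted *P*=0.00982). The groups were apart in both host and snoRNA, by more in the snoRNA.

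The other 5 tested hosts did not pass. *Snhg12* (0.47, SE 0.20, adjusted *P*=0.143), *Snhg8* (0.42, SE 0.20, 0.171) and *Snhg15* (0.36, SE 0.18, 0.195) were above *Snhg17* (0.31, SE 0.20, 0.304) and *Snhg18* (0.18, SE 0.11, 0.259), and neighbours in this order differed by less than their errors. No host was called without *Pax9*-null replicate 1 or without *Pax9*-null replicate 3, where the smallest adjusted *P* were 0.136 and 0.128, both *Snhg4*. Without wild-type replicate 1, *Gas5*, *Snhg4*, *Snhg6* and *Snhg14* were called (adjusted *P*=0.0803, 0.0407, 0.0592 and 0.0984). *Snhg14* also lost the call without *Pax9*-null replicate 2 (0.106), and *Snhg20* without wild-type replicate 2 (0.164) or 3 (0.116). Of 3 long non-coding hosts with other kinds of symbol, *Zfas1* was called higher (0.65, SE 0.15, adjusted *P*=0.0423), and *Epb41l4aos* (0.33) and *Dancr* (0.23) were not. *Zfas1* lost the call without *Pax9*-null replicate 1 or 3 (adjusted *P*=0.166 and 0.128 by limma) and with length and GC trends removed (0.56, 0.105), when *Epb41l4aos* was called lower (−0.55, 0.0695).

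**Figure D5:**
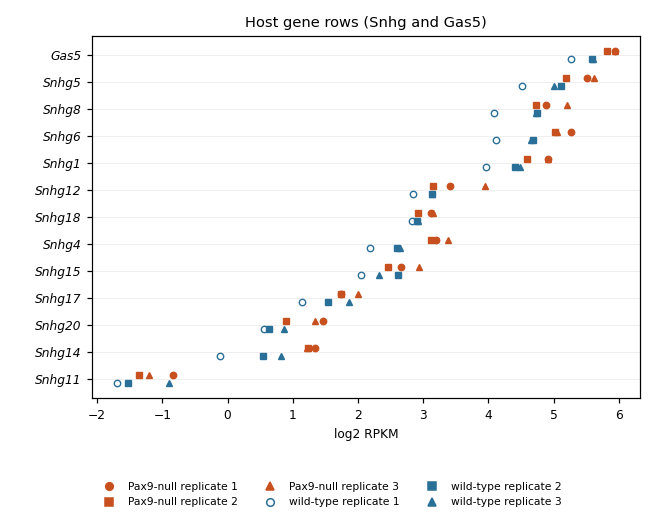
Log2 RPKM (horizontal axis) of the 13 host gene rows in each library, sorted by wild-type mean, with *Pax9*-null libraries in orange, wild-type libraries in blue and wild-type replicate 1 as open circles. The open circle is leftmost in 13 of 13 rows, and *Gas5* is the most abundant, at 5.26 to 5.94.

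The proteins that work with these RNAs showed smaller and mixed differences. Over all tested rows 14.7% were called higher and 12% lower. The assembly and trimming lists below had 8.33% and 11.8% called higher, no more than that share. Of 4 core proteins of box C/D particles, *Nop58* was called higher (0.27, SE 0.08, adjusted *P*=0.0706), and the methyltransferase gene *Fbl* was at 0.09 and *Nop56* at −0.15. Of 4 core proteins of box H/ACA particles, *Nop10* was called higher as deposited (0.42, SE 0.12, adjusted *P*=0.0623), at −0.08 with the length and GC trends removed, and the pseudouridine synthase gene *Dkc1* was at −0.08. Of 12 assembly and Cajal body factors, *Nufip1*, which acts in box C/D assembly, was called higher (0.25, adjusted *P*=0.0804) and *Nolc1*, a nucleolar phosphoprotein, was called lower (−0.66, SE 0.19, adjusted *P*=0.0605). Of 17 genes of snoRNA trimming and lariat debranching, the exosome subunits *Exosc3* (0.48, adjusted *P*=0.0661) and *Exosc1* (0.20, 0.0995) were called higher and the exosome nuclease *Exosc10* lower (−0.56, 0.059). *Exosc1* was at −0.14 with the trends removed. Without *Pax9*-null replicate 1 or 3 none of these 7 genes passed, the smallest adjusted *P* being 0.197 and 0.134. Without wild-type replicate 1, *Nolc1*, *Exosc10* and *Exosc3* passed (0.0835, 0.0792 and 0.0979). With length and GC trends removed none of the 7 passed, the smallest adjusted *P* being 0.131 by limma, for *Nolc1*.

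The factors of nonsense-mediated decay, the pathway that degrades several host transcripts, had lower values in *Pax9*-null libraries. All 10 had negative log2 fold changes as deposited (median −0.45), as did 6799 of all 13547 tested rows. Those called included the helicase *Upf1* (−0.76, SE 0.21, adjusted *P*=0.0552) and *Smg5* (−0.40, SE 0.14, 0.0976), where 12% of all tested rows were called lower. *Upf1* had 2.96, 3.48 and 3.54 log2 RPKM in *Pax9*-null and 4.47, 3.87 and 3.93 in wild-type libraries. Wild-type replicate 1 was the highest library here, opposite to its place among the hosts. Without it the median was −0.20 and only *Upf1* was called (adjusted *P*=0.0981). With length and GC trends removed the median was −0.26, 0 of the 10 were called and 2 were positive. *Upf1* was then at −0.40 (adjusted *P*=0.219 by limma) and *Smg5* at 0.03. Without *Pax9*-null replicate 1 the adjusted *P* of *Upf1* and *Smg5* were 0.186 and 0.288, and without *Pax9*-null replicate 3 both were 0.128.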

How the data were processed

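Total RNA from 6 dissections of the pharyngeal arches (3 embryos a genotype) was sequenced as first-strand specific TruSeq libraries. This follows the published methods, since the sample labels name sorted cells and Smart-seq2. The authors trimmed adaptors with Trimmomatic (0.32 in the submitters' processing notes), kept uniquely aligned, non-redundant reads, sub-sampled libraries to similar size, aligned them with STAR and counted them with featureCounts at default settings (2.5.1a and 1.5.1 in the same notes, GRCm38). The deposited values are log2 RPKM. Fitted to the values, they hold a prior count of 0.5 reads, so fold changes of rows with few reads are understated. At GENCODE M21 gene lengths 82.7% of values gave whole reads within 0.05 reads, and all rows did after a search of lengths (0.02 reads).

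Rows with a mean of at least 0.5 RPKM were tested with limma 3.58.1 (R 4.3.3, variance trend, two-sided, Benjamini-Hochberg over all tested rows, called at an adjusted *P* of at most 0.1), *Pax9*-null minus wild-type. The pipeline was tested on simulated data. Depth, read counts and exact Poisson intervals describe counting error only. The labels call the samples biological replicates. Members and gene lists were chosen with earlier results of these data known. Named rows were every host, the 8 best covered and 5 largest called, non-overlapping rises of each snoRNA class, snoRNAs inside a listed host, the genes holding these, and called genes of the lists, except 1 that is not reported here. The exceptions are *Snora62*, *Snora47*, *Snora20*, *Snord93*, *Snord58b*, *Snord53* and *Snord13*, rows sharing a host, and uncalled list genes, which were picked with their values in view. Alternatives covered the pseudocount, filter, scaling, variance model, replicate block, threshold, length and GC trends, and each library left out. The length and GC trends were smooth curves fitted for each library over the tested rows, members included. No file was set aside.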

Additional observations from a re-analysis of the deposited data

How the results depend on the processing

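The members called higher (31) and their direction as deposited changed little with the pseudocount, filter, scaling or variance model, which gave 24 to 31. With a threshold of 0.05 the count was 16, with length and GC trends removed 1, and with a library left out 5 to 38. Members called lower were 0 in each of these except with the trends removed, which gave 6. The number for all rows called (3611) was 1335 at 0.05, 534 with the trends removed and 175 to 3578 with a library left out. With the trends removed the median log2 fold changes were 0.071 for box C/D, −0.14 for box H/ACA and 0.21 for host gene rows, and the median snoRNA minus host difference was −0.11. With a library left out, the medians ranged from 0.49 to 0.94, 0.44 to 0.82, 0.36 to 0.63 and 0.40 to 0.67 in the same order.

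The main test did not pair samples by replicate number. Correlations of same-numbered libraries, as deviations from the mean of their group, were −0.02, −0.17 and 0.26. Deviations within a group of 3 sum to 0, so these values cannot show whether the samples are paired. With a replicate block 27 members were called higher and 1377 rows in all.

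With length and GC trends removed, these named rows changed sign: *Snhg6* −0.020, *Snhg8* −0.30, *Snhg18* −0.11, *Snord17* −0.35, *Snord43* −0.24, *Snord49a* −0.20, *Snord118* −0.58, *Snord32a* −0.063, *Snord13* −0.49, *Snord58b* −0.59, *Snord70* −0.40, *Snora57* −0.10, *Snora78* −0.12, *Snora17* −0.55, *Snora21* −0.065, *Snora28* −0.69, *Snora2b* −0.61, *Snora20* −0.78, *Snora62* −0.16, *2410006H16Rik* −0.56, *Rps3a1* −0.10, *Rps12* −0.67, *Rpl17* −0.23, *Epb41l4aos* −0.55, *Nop10* −0.079, *Exosc1* −0.14, *Smg5* 0.030, *Scarna9* −0.041, *Scarna6* −0.58, *Scarna2* −0.22, *Scarna13* −0.68, *Rpph1* −0.13, *Rnu5g* −0.39. With quantile normalization *Rpl3* (−0.20) and *Rps12* (−0.088) changed sign. Single named rows kept direction and side of the threshold in 993 cases, lost the call in 273 and gained it in 17. Calls of rows with few reads are limited by depth: snoRNA rows had 5 to 498 reads per library, with a median row mean of 28.7.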

Other observations

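Other small non-coding RNAs were also higher in the *Pax9*-null libraries. The 19 tested rows were for small Cajal body RNAs, spliceosomal RNAs, Y RNAs and signal recognition particle RNAs. They also held the RNA parts of telomerase, RNase P, RNase MRP and the vault. Of the 19, 12 were called higher by limma, where 14.7% of all tested rows were. Their median log2 fold change over the 19 was 0.84 as deposited and −0.13 with length and GC trends removed. The Y RNA *Rny3* had 6.19, 5.82 and 5.90 log2 RPKM in *Pax9*-null and 4.18, 4.86 and 4.31 in wild-type libraries (log2 fold change 1.52, SE 0.18, adjusted *P*=0.00943). *Rny1* (1.56, adjusted *P*=0.0195) and the signal recognition particle RNA *Rn7s1* (1.57, 0.0146) rose by like amounts. *Terc*, the telomerase RNA, which carries an H/ACA domain, was called at 1.22 (SE 0.34, adjusted *P*=0.0586), and *Rpph1*, the RNA of RNase P, at 0.90 (SE 0.32, 0.0973).

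The small Cajal body RNAs, which guide the same modifications on spliceosomal RNA, included 4 of 5 rows called higher, *Scarna9* (0.79), *Scarna17* (0.97), *Scarna6* (0.55) and *Scarna2* (0.64), with *Scarna13* at 0.39 (adjusted *P*=0.19). With length and GC trends removed, *Scarna6* (−0.58, adjusted *P*=0.0389 by limma) and *Scarna13* (−0.68, 0.0364) were called lower. Of the 19 rows 2 were then called higher and 4 lower, where 1.77% and 2.17% of all tested rows were. Wild-type replicate 1 was the lowest library in 15 of the 19 rows, and in 29.5% of all tested rows. Without it 10 were called higher, where 8.13% of all tested rows were, and the median of the 19 was 0.51. Without *Pax9*-null replicate 1 or 3, 3 of the 12 were called, in both cases *Rny3*, *Rn7s1* and *Rny1*. Of all tested rows 1.93% and 1.13% were called higher in these fits.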
